A study of Mus musculus with 7 samples.

Results

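The genes described here are 45 genes of mitosis, the kinetochore and the spindle checkpoint, measured in nuclei of cultured BB-p53n OPCs. The rule lists them by symbol and uses no measured value, but the list was drawn up with earlier results of these data known. Each of the 45 was found once among the 33696 genes of the matrix, and all 45 were above the minimum of 100 UMIs (unique molecular identifiers, the counted RNA molecules) that 14531 genes reached. The BB-p53n OPCs are a culture of mouse oligodendrocyte progenitor cells without *Trp53* and with forced PDGFB. A single retrovirus, PDGFB-IRES-CRE, brings both changes, since its Cre removes the floxed gene in *Trp53* fl/fl cells. The donors were C57BL/6 pups of both sexes, aged 5 to 7 days, the cells were selected by the surface receptor CD140a (PDGFRα), and their nuclei were taken from culture without debris removal or filtering. Only 1 library of these cells was measured, and no library of unmutated OPCs is listed. The series has 7 samples, and its 6 brain samples with tumors (3 early-stage, 3 late-stage) were not analysed here.

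With 1 library there is no replicate. No test between groups of nuclei was run, each value is a description of this library, and the 95% intervals below (exact Poisson for CPM, exact Clopper-Pearson for shares, exact conditional binomial for ratios) cover counting error only. Of 10047 barcodes, the 8917 with 2000 to 8000 detected genes were kept, and a further limit of 5% mitochondrial UMIs, used below as an alternative, leaves 1954. The kept nuclei held 141138093 UMIs, and the median nucleus had 13771 UMIs from 4718 genes. A level is given in CPM, computed from the UMIs of a gene summed over the nuclei named. Among the OPC markers, *Pdgfra* stood at 256 CPM, *Olig2* at 293 CPM and *Sox10* at 87.3 CPM, and all 8 listed OPC markers had at least 100 UMIs. The lists for other cell types were low in sum: 150 CPM for the 8 neuron genes (109 of it from *Syt1*), 107 CPM for the 6 astrocyte genes (91.9 of it from *S100b*), 9.49 CPM for the 5 endothelial genes, 7.42 CPM for the 6 microglia genes and 0.560 CPM for the 6 pericyte or fibroblast genes, with *C1qa* and *Cldn5* at 0 UMIs. The oligodendrocyte markers *Mog* and *Mag* had 10 and 2 UMIs.

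A cell enters mitosis when *Cdk1* bound to B-type cyclins becomes active, with *Plk1* and the Aurora kinases beside it. Condensins and topoisomerase II compact and untangle the chromosomes, spindle microtubules attach to kinetochores built on the centromere, and the spindle checkpoint holds the cell until all chromosomes are attached. *Cdc20* then activates the anaphase-promoting complex (APC/C), which marks securin and the B-type cyclins for destruction so that separase can part the sister chromatids. In normal brain, OPCs are a dividing glial population whose division depends on PDGF.

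The 45 genes together held 970423 UMIs, which is 0.688% of the kept UMIs or 6876 CPM (6862 to 6889). Their levels spanned from 40.7 to 745 CPM, with a median of 128 CPM, and 31 of the 45 had a UMI in over 50% of nuclei. Detection rises with depth, so the nuclei were also thinned at random to 5000 UMIs each, which left out the 157 shallower nuclei. At that depth 12 of the 45 had a UMI in over 50% of nuclei, and the shares ran from 16.0% for *Ccnf* to 78.2% for *Top2a*.

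**Figure D1:**
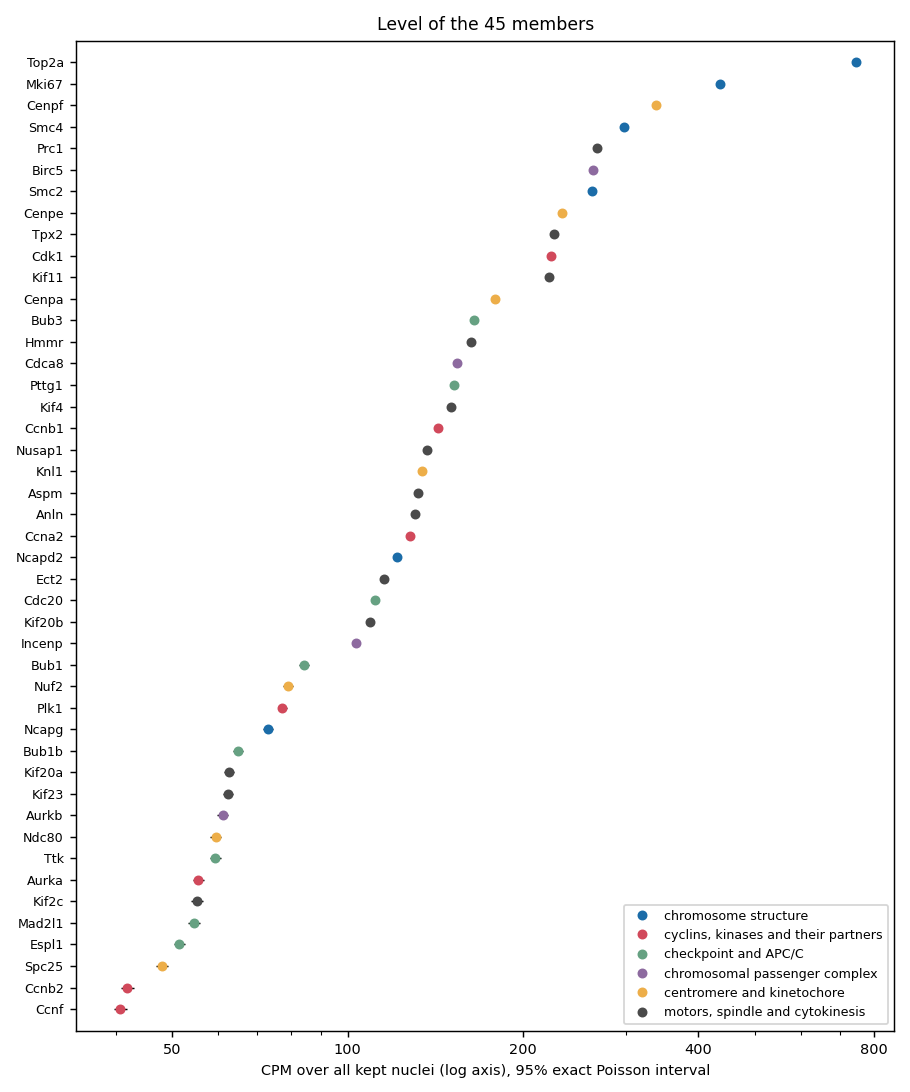
Level of each of the 45 genes in CPM over the 8917 kept nuclei, on a log axis, with 95% exact Poisson intervals that are mostly narrower than the points and colours for the role of the gene. Top2a stands alone at 745 CPM, 11 genes lie above 200 CPM, and Ccnf and Ccnb2 close the order near 41 CPM.

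The first places in the order of levels went to *Top2a* and *Mki67*, both genes of chromosome structure. *Top2a*, the topoisomerase that untangles replicated DNA, stood at 745 CPM (740 to 750), had a UMI in 87.9% of nuclei and alone gave 10.8% of the UMIs of the 45 genes. Only 162 genes of the matrix had more UMIs. *Mki67*, which coats the surface of mitotic chromosomes, followed at 436 CPM (433 to 440) and 83.0% of nuclei. The condensin ATPases *Smc4* and *Smc2* stood at 298 CPM (295 to 301) and 263 CPM (261 to 266) and were found in 86.6% and 87.0% of nuclei. The condensin I subunits *Ncapd2* and *Ncapg* were lower, at 121 and 73.1 CPM.

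Among kinetochore genes, the large corona protein *Cenpf* (338 CPM, 335 to 341) and the kinesin *Cenpe* (234 CPM, 231 to 236) were far above the outer kinetochore genes. *Knl1* stood at 134 CPM, and the *Ndc80* complex genes *Nuf2*, *Ndc80* and *Spc25* at 79.0, 59.4 and 48.0 CPM. *Cenpa*, the histone H3 variant of centromeres, stood at 179 CPM. Of the motor and spindle genes, the midzone bundler *Prc1* led at 268 CPM (265 to 271), followed by *Tpx2*, an activator of Aurora A, at 226 CPM (223 to 228) and the bipolar spindle kinesin *Kif11* at 222 CPM. The kinesins *Kif4*, *Kif20b*, *Kif20a* and *Kif23* stood at 151, 109, 62.6 and 62.4 CPM, and *Hmmr*, *Nusap1*, *Aspm*, *Anln* and *Ect2*, which act on spindle microtubules or in cytokinesis, at 163, 137, 132, 130 and 116 CPM. The lowest of this group was *Kif2c*, a microtubule-depolymerizing kinesin, at 55.2 CPM. In the chromosomal passenger complex, *Birc5* (survivin) stood at 264 CPM (261 to 266) and its partners *Cdca8*, *Incenp* and the kinase *Aurkb* at 154, 103 and 61.0 CPM.

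The cyclins and mitotic kinases were less abundant. *Cdk1* stood at 224 CPM (221 to 226) with a UMI in 77.2% of nuclei, *Ccnb1* (cyclin B1) at 143 CPM, *Ccna2* (cyclin A2) at 128 CPM, *Plk1* at 77.3 CPM and *Aurka* at 55.4 CPM. *Ccnb2* (cyclin B2) at 41.9 CPM (40.8 to 43.0) and *Ccnf* (cyclin F) at 40.7 CPM (39.7 to 41.8) were the lowest of all, and their intervals overlap. The checkpoint genes *Bub3*, *Bub1*, *Bub1b*, *Ttk* and *Mad2l1* stood at 165, 84.2, 64.8, 59.3 and 54.5 CPM. Separase, the product of *Espl1*, stood at 51.4 CPM, and its inhibitor securin, the product of *Pttg1*, at 152 CPM.

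These orders compare different genes, and a longer gene may offer more places for a read. Over the 45 genes, however, CPM and gene span had a Spearman's rho of only 0.22. The order per kilobase is therefore a second description that favours short genes, not a corrected order. Per kilobase of gene span, *Birc5* led with 40.3 CPM per kilobase, followed by *Cdc20* (24.7), *Top2a* (23.8), *Ccnb1* (17.97) and *Ccna2* (17.6), and the kinase gene *Ttk* was last with 1.15 CPM per kilobase. Of the 10 highest genes by CPM, 5 were also among the 10 highest per kilobase. The order by CPM and the order by the share of nuclei at 5000 UMIs had a Spearman's rho of 0.988 over the 45 genes, and CPM and CPM per kilobase one of 0.621.

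*Cdc20* itself (ENSMUSG00000006398, chr4:118290098-118294610, minus strand, GRCm39) was among the middle members. It stood at 111 CPM (110 to 113), and 1970 genes of the matrix had more UMIs. A *Cdc20* UMI was found in 55.6% of nuclei, and in 31.9% at 5000 UMIs, with up to 28 UMIs in 1 nucleus. Of the 8917 nuclei, 3957 had 0 *Cdc20* UMIs, 1872 had 1 and 3088 had 2 or more, a share of 34.6% (33.6 to 35.6). The classes differ in depth: the median was 11370 UMIs at 0, 13674 at 1 and 18897 at 2 or more. At 5000 UMIs the share with 2 or more was 11.1%. *Xist*, at 182.3 CPM over all nuclei, was taken as a gauge of how far its own RNA reached other nuclei. At 5000 UMIs it had a UMI in 2.76% (1.81 to 4.02) of the 942 nuclei with 2 or more Y-linked UMIs (median 10972 UMIs). Among the 7005 nuclei with no Y-linked UMI (median 14306 UMIs) the share was 27.2%. *Cenpa*, at a like overall level, had a UMI in 46.9% of nuclei at that depth. The gauge covers *Xist* alone and need not hold for other RNAs, and 6.335% of the kept UMIs were mitochondrial. How much RNA of the members came from outside the nucleus was not tested.

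Nuclei with more *Cdc20* UMIs had more RNA of all the other members. The 44 other genes summed to 4369 CPM (4350 to 4387) at 0 *Cdc20* UMIs, 6178 at 1, 7479 at 2, 8636 at 3, 8962 at 4, 9232 at 5, 9614 at 6 to 9 and 10060 (9988 to 10132) at 10 or more. The largest steps were those from 0 to 3 UMIs, and above 3 the sum rose more slowly. The 35 genes of an S-phase list, taken for contrast, went from 3667 CPM at 0 to 2514 CPM at 10 or more. In the class with 2 or more, the 44 genes summed to 8833 CPM, 2.02 times (2.01 to 2.03) the sum at 0. That class held 45.6% of all UMIs and 59.5% of the UMIs of the 44 genes.

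**Figure D2:**
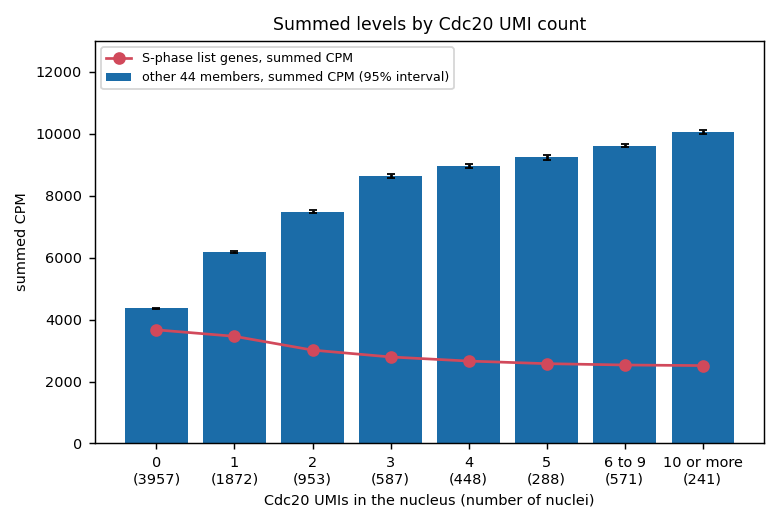
Summed CPM of the 44 other members (bars, with 95% intervals) and of 35 S-phase list genes (points) in nuclei grouped by their number of Cdc20 UMIs, with the number of nuclei under each bar. The bars climb from 4369 CPM at 0 to 10060 CPM at 10 or more, while the S-phase sum goes from 3667 to 2514 CPM.

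Each of the 44 genes was higher at 2 or more *Cdc20* UMIs than at 0, with an interval above 1, beside 37.9% of all genes above 1, and each had an intermediate level at 1 UMI. The ratios ran from 1.34 to 3.68 with a median of 1.96, and 21 of the 44 were at least 2-fold higher. At 1.5-fold or more it was 39 of the 44, beside 1.95% of all genes. Over all 14530 other genes with at least 100 UMIs, 0.592% were at least 2-fold higher (86 genes, 21 of them these members), 2.92% were at least 2-fold lower, and the median ratio was 0.951. With the nuclei at 0 weighted to the depth of the others, 18 of the 44 were at least 2-fold higher, beside 0.908% of all genes, and the median was 1.85. Weighted instead to their clusters (the clusters made with all variable genes, 42 of them members), 6 of the 44 were, beside 0.434%. With thinning to 5000 and 3000 UMIs it was 14 and 13, beside 0.511% and 0.569% of the genes that kept at least 100 UMIs. After thinning to 3000 UMIs, 43 of the 44 genes were above 1, and *Aurkb* stood at 0.997. The share of UMIs from mitochondrial genes was 6.42% at 0 and 6.23% at 2 or more.

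When nuclei with over 5% mitochondrial UMIs were also left out, 1954 nuclei remained and the median ratio was 2.14. The 45 genes summed to 7867 CPM, 9 of the 10 highest levels belonged to the same genes, and *Top2a* stood at 854 CPM. All 44 others were again higher at 2 or more *Cdc20* UMIs, 26 of them at least 2-fold, beside 41.5% and 0.995% of all 11560 genes with at least 100 UMIs there. *Cenpf* took the first place, with 146 CPM at 0 and 730 CPM at 2 or more, a ratio of 5.02 (4.75 to 5.30), ahead of *Aspm* at 4.76 (4.36 to 5.21) and *Ccnb1* at 4.499 (4.14 to 4.90). The ratios in these nuclei and in all kept nuclei, which include them, had a Spearman's rho of 0.99 over the 44 genes.

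The 8 genes with the highest ratios act around entry into mitosis, on the spindle, at the kinetochore and in cytokinesis. *Ccnb1* went from 60.3 CPM at 0 to 106 at 1 and 222 at 2 or more *Cdc20* UMIs, a ratio of 3.68 (3.54 to 3.83). *Aspm*, which binds spindle poles, went from 57.9 to 106 and 200 CPM, a ratio of 3.45 (3.31 to 3.595). *Cenpf* went from 151 to 255 and 517 CPM, a ratio of 3.43 (3.34 to 3.52). *Kif2c*, among the lowest members by level, went from 24.7 to 42.5 and 83.8 CPM, a ratio of 3.39 (3.19 to 3.61). These 4 were the only members at 3-fold or more, beside 0.0895% of all genes, and their intervals overlap with each other except that those of *Cenpf* and *Ccnb1* do not. *Aurka* (2.99, 2.81 to 3.18), *Cenpa* (2.98, 2.88 to 3.08), *Kif20a*, a cytokinesis kinesin (2.97, 2.81 to 3.15), and *Plk1* (2.89, 2.74 to 3.04) came next, with intervals that overlap.

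The 8 lowest ratios belonged to condensin, outer kinetochore and 2 cytokinesis-related genes. *Ncapg* went from 61.0 CPM at 0 to 74.6 at 1 and 81.6 at 2 or more, a ratio of 1.34 (1.28 to 1.40). *Smc2* went from 220 to 267 and 294 CPM, also a ratio of 1.34 (1.31 to 1.37). *Spc25* (1.36, 1.28 to 1.44), *Smc4* (1.47, 1.44 to 1.51), *Aurkb* (1.49, 1.41 to 1.56), *Anln*, which encodes the actin-binding anillin (1.502, 1.45 to 1.56), *Knl1* (1.54, 1.49 to 1.59) and *Ndc80* (1.54, 1.46 to 1.62) followed. The ratio was only loosely tied to the level across the 44 genes (Spearman's rho 0.14) and to the gene span (rho -0.19), as a description over genes that share their nuclei.

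By role, 6 of 7 cyclins and kinases were at least 2-fold higher, beside 0.592% of all genes, the exception being *Ccna2* at 1.77. Of the motor, spindle and cytokinesis genes it was 9 of 13 (*Nusap1* at 2.22, *Kif23* at 2.06 and *Ect2* at 2.03 among them, with *Kif20b* at 1.85 and *Kif4* at 1.83 below), of the centromere and kinetochore genes 3 of 7 (*Cenpf*, *Cenpa* and *Cenpe*), of the chromosomal passenger complex 2 of 4, of the checkpoint genes 1 of 7, and of the chromosome structure genes 0 of 6. These counts by role did not hold when nuclei were weighted to the clusters made with all variable genes, 42 of which were members. Such a weighting compares nuclei already grouped in part by these genes, so it is no independent check. The order of the ratios was mostly kept, with a Spearman's rho of 0.94 between unweighted and weighted ratios over the 44 genes. The 6 genes at 2-fold or more under this weighting, beside 0.434% of all genes, were *Ccnb1*, *Aspm*, *Cenpf*, *Kif20a*, *Cenpa* and *Pttg1*. Of the cyclins and kinases only *Ccnb1* was among them. Of the 3 most abundant members, *Cenpf* had an unweighted ratio of 3.43, whereas *Top2a* went from 517 to 933 CPM (1.80, 1.78 to 1.83) and *Mki67* from 308 to 533 CPM (1.73, 1.69 to 1.76). *Cdk1* went from 137 to 301 CPM (2.19, 2.13 to 2.25), while its partner *Ccnb2* stood at 2.28. Within the passenger complex the subunits spread widely, from 1.49 for *Aurkb* and 1.62 for *Incenp* to 2.05 for *Birc5* and 2.60 for *Cdca8*. Among the checkpoint genes, *Pttg1*, the securin gene, stood at 2.45 (2.36 to 2.53), *Bub1b* at 1.99, *Espl1* at 1.84, *Bub3* at 1.66, *Bub1* at 1.61, and *Ttk* and *Mad2l1* both at 1.56.

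The same shift was seen in the number of members per nucleus. The *Cdc20* classes were counted again after thinning to 5000 UMIs, so the class at 0 takes in nuclei that had *Cdc20* UMIs before thinning. At that depth, nuclei with 0 *Cdc20* UMIs had a UMI of 16 of the 44 other genes in the median (10th to 90th percentile 3 to 26, 5966 nuclei), and nuclei with 2 or more had 24 (15 to 31, 969 nuclei). By the classes counted before thinning, the medians at 5000 UMIs were 12 at 0 and 24 at 2 or more. Nuclei with 5 or fewer of the 44 made up 17.0% of the thinned class at 0 (1015 nuclei) and were 5 in number in the thinned class at 2 or more. Nuclei with 0 *Cdc20* UMIs after thinning were therefore not a class without mitotic transcripts: *Top2a* had a UMI in 75.0% and *Mki67* in 65.1% of them at this depth, against 87.8% and 85.9% at 2 or more, and only 54 of the 5966 nuclei had none of the 44. Single genes differed in how far their shares moved. *Ccnb1* went from 29.9% to 67.3% of nuclei, *Cenpa* from 38.2% to 74.4% and *Cenpf* from 48.4% to 84.0%, whereas *Aurkb* went from 22.4% to 25.3% and *Spc25* from 18.5% to 22.4%.

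Because late cell-cycle promoters are known for a cell cycle genes homology region (CHR) and for CCAAT boxes, the windows around the gene starts were searched for these letters. The CHR was read as TTTGAA and the CCAAT box as CCAAT, each on both strands and each able to overlap the other. The windows ran from 250 bases before to 50 bases after the start of the canonical GENCODE transcript on GRCm39. For 31 of the 45 genes the middle of the window was also found in a RefSeq promoter of that gene. For the others, *Ccnb1* and *Aurkb* among them, the start and so the motifs are less certain. A CHR was found for 26 of the 45 genes (57.8%), beside 17.1% of all 21418 protein-coding windows, and a CCAAT box for 31 (68.9%), beside 40.0% of them. At least 2 CCAAT boxes were found for 19 of the 45 and in 12.7% of all windows, and both motifs for 21 of the 45 (46.7%) and in 7.46% of all windows. The E2F-like words TTTCCCGC and TTTGGCGC were found for 0 of the 45 and in 2.03% of all windows. Genes with a CHR had a median *Cdc20* ratio of 2.02 (25 genes) and genes without one of 1.83 (19 genes), and for the CCAAT box the medians were 2.00 (30 genes) and 1.81 (14 genes).

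The windows below, from 150 bases before to 30 bases after the start, show where the letters lie. They are *Cdc20* and, chosen for holding both motifs, of the 15 members with both in this shorter window the 4 with the highest ratio and 2 of the lowest. The 8 members with the highest ratios overall are not among those 15. Capitals mark the CHR (TTTGAA, or TTCAAA on the other strand) and the CCAAT box (CCAAT, or ATTGG). The sequences are read 5′ to 3′ along the gene from chr4:118294581-118294760 on the minus strand for *Cdc20*, chr11:40624251-40624430 on the minus strand for *Hmmr*, chr4:124830688-124830867 on the minus strand for *Cdca8*, chr7:79944037-79944216 on the plus strand for *Prc1*, chr9:70328845-70329024 on the minus strand for *Ccnb2*, chr11:68936317-68936496 on the plus strand for *Aurkb* and chr4:52439093-52439272 on the plus strand for *Smc2*.
Cdc20: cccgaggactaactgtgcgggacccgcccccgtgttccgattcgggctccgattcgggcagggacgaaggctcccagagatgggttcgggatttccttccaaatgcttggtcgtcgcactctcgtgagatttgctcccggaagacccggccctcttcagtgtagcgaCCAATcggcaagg
Hmmr: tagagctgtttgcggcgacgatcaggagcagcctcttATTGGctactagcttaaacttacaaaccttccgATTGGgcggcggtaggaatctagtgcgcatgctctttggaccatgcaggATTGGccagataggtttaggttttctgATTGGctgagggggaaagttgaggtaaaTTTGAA
Cdca8: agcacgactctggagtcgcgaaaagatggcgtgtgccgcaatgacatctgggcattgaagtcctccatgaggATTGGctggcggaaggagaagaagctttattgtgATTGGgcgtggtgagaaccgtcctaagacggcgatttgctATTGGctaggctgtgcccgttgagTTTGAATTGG
Prc1: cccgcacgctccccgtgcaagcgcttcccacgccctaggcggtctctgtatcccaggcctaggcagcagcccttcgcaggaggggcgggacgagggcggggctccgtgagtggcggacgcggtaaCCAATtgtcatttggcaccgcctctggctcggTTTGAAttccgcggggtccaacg
Ccnb2: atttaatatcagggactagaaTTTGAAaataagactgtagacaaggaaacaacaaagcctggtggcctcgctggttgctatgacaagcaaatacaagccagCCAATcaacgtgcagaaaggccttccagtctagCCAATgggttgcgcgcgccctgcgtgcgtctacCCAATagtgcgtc
Aurkb: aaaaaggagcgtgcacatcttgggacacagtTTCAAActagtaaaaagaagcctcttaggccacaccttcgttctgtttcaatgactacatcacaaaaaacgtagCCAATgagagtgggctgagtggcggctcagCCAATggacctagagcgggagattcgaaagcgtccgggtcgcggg
Smc2: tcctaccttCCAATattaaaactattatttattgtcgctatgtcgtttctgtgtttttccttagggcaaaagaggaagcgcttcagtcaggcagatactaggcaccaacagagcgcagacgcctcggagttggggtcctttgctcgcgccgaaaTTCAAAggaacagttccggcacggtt
The first 5 of these windows belong to genes with a ratio of 2.28 or more or to *Cdc20*, and the last 2 to genes with a ratio of 1.49 or less. *Hmmr*, which encodes a spindle assembly factor, and *Cdca8* hold 4 CCAAT boxes and 1 CHR each, *Ccnb2* holds 3 and 1, *Aurkb* 2 and 1, and *Prc1* and *Smc2* 1 and 1. The *Cdc20* window holds 1 CCAAT box and no CHR, and its CHR lies farther out, 216 bases before the start.

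A second comparison used no member. The 983 nuclei (the upper 10%) with the highest share of UMIs on the S-phase list at 5000 UMIs, at least 0.56%, were set against the other 7777. In the nuclei high in S-phase RNA, 42 of the 45 genes were lower, beside 48.2% of all genes tested, and 13 were at least 2-fold lower, beside 1.07%. The median ratio of all genes was 1.01. *Cenpa* stood at 46.6 CPM in them and 193 in the rest, a ratio of 0.242 (0.223 to 0.262), and *Cdc20* at 31.7 and 120 CPM, a ratio of 0.265 (0.240 to 0.292). *Cenpf*, *Aspm*, *Ccnb1* and *Pttg1* followed at 0.301, 0.304, 0.309 and 0.309. The 3 genes above 1 were *Ncapg* (1.11, 1.04 to 1.19), *Smc2* (1.07, 1.04 to 1.11) and *Aurkb* (1.03, 0.954 to 1.10), and the interval of *Aurkb* holds 1. *Top2a* (0.858, 0.839 to 0.877) and *Mki67* (0.884, 0.859 to 0.909) were slightly lower, and *Nuf2* stood at 79.1 CPM in both. Nuclei with 2 or more *Cdc20* UMIs made up 7.73% of the S-phase-high nuclei and 38.5% of the rest, or 1.32% and 12.3% at 5000 UMIs, with median depths of 12017 and 14184 UMIs.

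Genes with a higher ratio in the *Cdc20* split mostly had a lower one in the S-phase split, with exceptions such as *Kif2c*, at 3.39 in the first and 0.454 in the other. Over 44 genes the 2 ratios had a Spearman's rho of -0.93, given as a description, since both comparisons draw on the same nuclei. *Pttg1* and *Ccnb2* lay below the run of the other genes, with S-phase ratios of 0.309 and 0.407 at *Cdc20* ratios of 2.45 and 2.28. Condensin and outer kinetochore genes lay at the other end, between 0.896 and 1.11 in the S-phase split and from 1.34 to 1.56 in the *Cdc20* split.

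**Figure D3:**
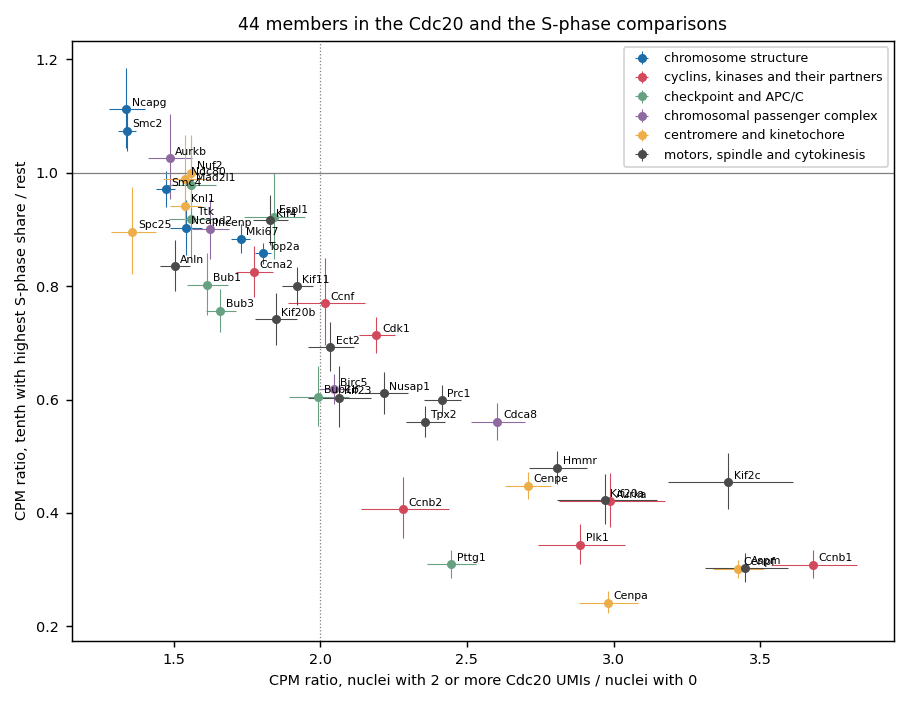
Each point is 1 of 44 genes, with its CPM ratio between nuclei with 2 or more and with 0 Cdc20 UMIs on the horizontal axis, its CPM ratio between the 983 S-phase-high nuclei and the other 7777 on the vertical axis, and 95% intervals for counting error. The points fall from Ncapg and Smc2 at the upper left to Ccnb1, Aspm and Cenpf at the lower right, with Cenpa lowest at 0.242.

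Splitting the nuclei by each member in turn (2 or more UMIs against 0) showed which genes go together. In all 45 splits every other member had a ratio above 1, with a range from 1.06 to 12.6. Of all genes, 36.9% to 47.4% were above 1 in a given split, and 7.93% of the 14486 genes that are no member were above 1 in all 45. The nuclei with 0 UMIs of *Top2a* were only 1081 and those of *Mki67* only 1515, and in these splits 41 of the 44 others were at least 2-fold higher, up to 12.6 for *Aurkb* in the *Top2a* split and 10.6 for *Aspm* in the *Mki67* split. Over all genes, 2.68% were at least 2-fold higher in the *Top2a* split and 2.36% in the *Mki67* split. *Aspm* was the highest other gene in 22 of the 45 splits. *Pttg1* was the lowest in 30 of them, with 1.28 in the split by *Top2a* and 1.08 in the split by *Aurkb*.

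In the split by *Pttg1*, 16 of the 44 others were at least 2-fold higher, beside 0.447% of all genes, led by *Cdc20* (4.14), *Cenpa* (3.89), *Cenpf* (3.55) and *Ccnb1* (3.44), while *Smc2* and *Ncapg* stood at 1.16. In the split by *Ccnb2* the median of the others was 1.36, and *Cdc20*, at 2.30, was the only member at 2-fold or more, beside 0.0826% of all genes. In the split by *Ccnf*, of about the same level, the median was 1.83 and 11 members were at 2-fold or more, beside 0.323% of all genes. *Cdc20* in turn was at least 2-fold higher in 34 of the 44 splits by another gene. It was highest in the splits by *Birc5* (5.195) and *Cenpa* (5.13) and lowest in those by *Spc25* (1.48) and *Aurkb* (1.60). Split by *Plk1* in place of *Cdc20*, 29 of the 44 others were at least 2-fold higher, beside 0.716% of all genes, with *Cdc20* among them at 3.02.

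**Figure D4:**
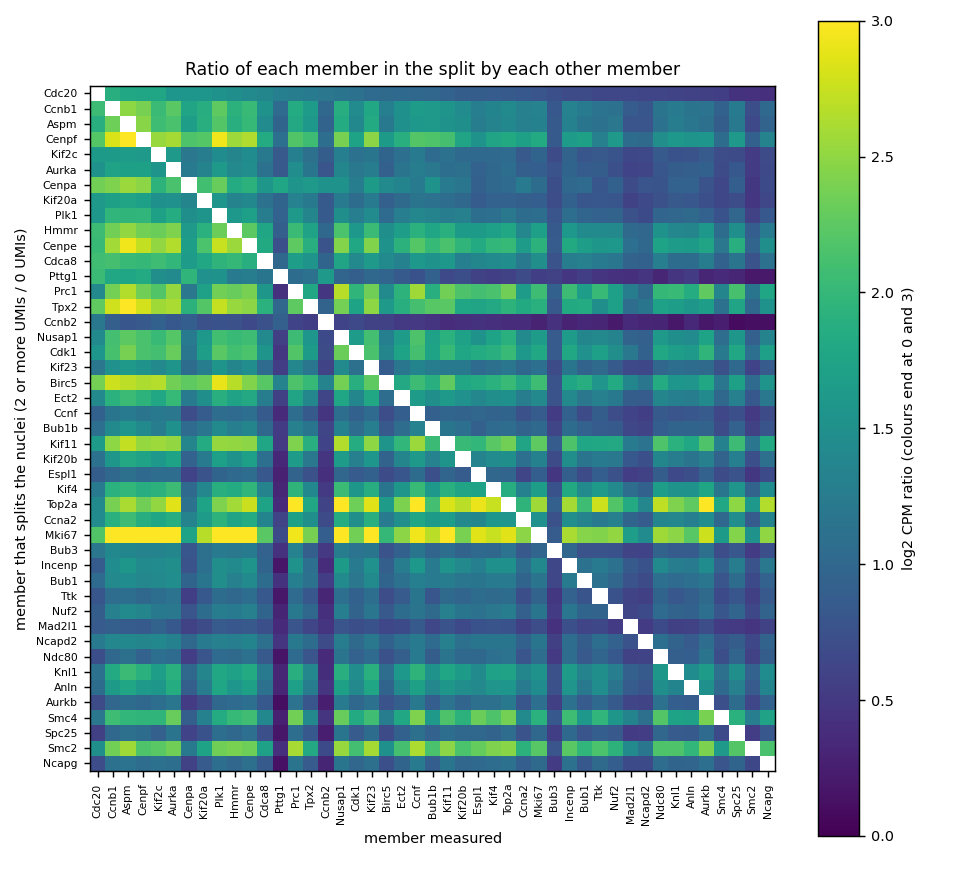
Log2 CPM ratio of each member (columns) between nuclei with 2 or more and with 0 UMIs of the member in the row, with genes in the order of the Cdc20 split and the colours ending at 0 and 3. The columns of Pttg1, Ccnb2 and Bub3 are dark in most rows, and the rows of Top2a and Mki67, with few nuclei at 0, are the brightest.

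To see how the genes vary among nuclei grouped by other transcripts, the nuclei were clustered with the members and the other cell-cycle lists left out of the variable genes. This gave 8 clusters, which are named by number only, and their levels are described with no test. In cluster 2 (1418 nuclei) all 45 genes were below their level over all nuclei, and 32 were at or under 0.5 of it. Of all genes, 63.1% were below and 6.61% at or under 0.5. The 44 genes other than *Cdc20* summed to 2913 CPM there. *Aspm* (28.5 CPM against 132 over all nuclei) and *Cenpf* (79.8 against 338) were furthest below, and *Ccnb2* (37.8 against 41.9) was the least so. *Pttg1* stood at 116 CPM there, against 152 over all nuclei. Nuclei with 5 or fewer of the 44 genes at 5000 UMIs made up 26.9% of cluster 2 and 34.97% of the small cluster 7, beside 12.6% of all nuclei (1099 of 8760) and 0.228% of cluster 3.

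In cluster 3 (1341 nuclei) all 45 genes were above their level over all nuclei, beside 34.3% of all genes, 28 of the 45 had their highest level of the 8 clusters, beside 4.67% of all genes, and the 44 genes summed to 9022 CPM. Nuclei with 2 or more *Cdc20* UMIs made up 63.1% of it, and 20.7% at 5000 UMIs. In cluster 5 (829 nuclei) they made up a like share, 64.7%, and 15.4% at 5000 UMIs. Median depths were 14026 UMIs in cluster 2, 18841 in cluster 3 and 30019 in cluster 5.

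Cluster 6 (295 nuclei, median 12302 UMIs) held the largest share of nuclei with 2 or more *Cdc20* UMIs, 75.9% (70.6 to 80.7), and 37.7% at 5000 UMIs, but only some members were high in it. *Cdc20* stood at 289 CPM (272 to 307), 2.60 times its level over all nuclei, *Kif20a* at 125 CPM (114 to 136), *Cenpa* at 352 CPM (334 to 372), *Pttg1* at 293 CPM (275 to 310) and *Ccnb2* at 76.8 CPM (68.2 to 86.2). In the same nuclei *Top2a* stood at 325 CPM (307 to 344) against 745 over all nuclei, *Aurkb* at 20.3 CPM (16.0 to 25.4) against 61.0, *Spc25* at 25.6 CPM (20.7 to 31.3) against 48.0 and *Incenp* at 61.3 CPM (53.7 to 69.8) against 103. The passenger complex genes were therefore split, with *Cdca8* at 270 and *Birc5* at 394 CPM above, and *Aurkb* and *Incenp* below, their levels over all nuclei.

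Cluster 1 (1715 nuclei) showed another mix. *Bub1b* (97.2 CPM), *Anln* (190), *Ccna2* (175) and *Knl1* (180) had their highest level of the 8 clusters there, while *Cdc20* was at 56.7 CPM, close to the 57.9 CPM of cluster 2, with 2 or more UMIs in 16.4% of nuclei. In that cluster *Pdgfra* stood at 16.3 CPM, against 147 to 378 CPM in the other 7. *Ccnb2* was lowest in cluster 7 (186 nuclei), at 9.33 CPM against 25.6 CPM or more elsewhere. Within each of these 8 clusters made without cell-cycle genes, the 44 genes summed higher at 2 or more than at 0 *Cdc20* UMIs, by 1.12 times in cluster 6 to 3.32 times in cluster 7, and 28 of the 44 genes were above 1 in all 8 of them, beside 3.54% of all genes tested.

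**Figure D5:**
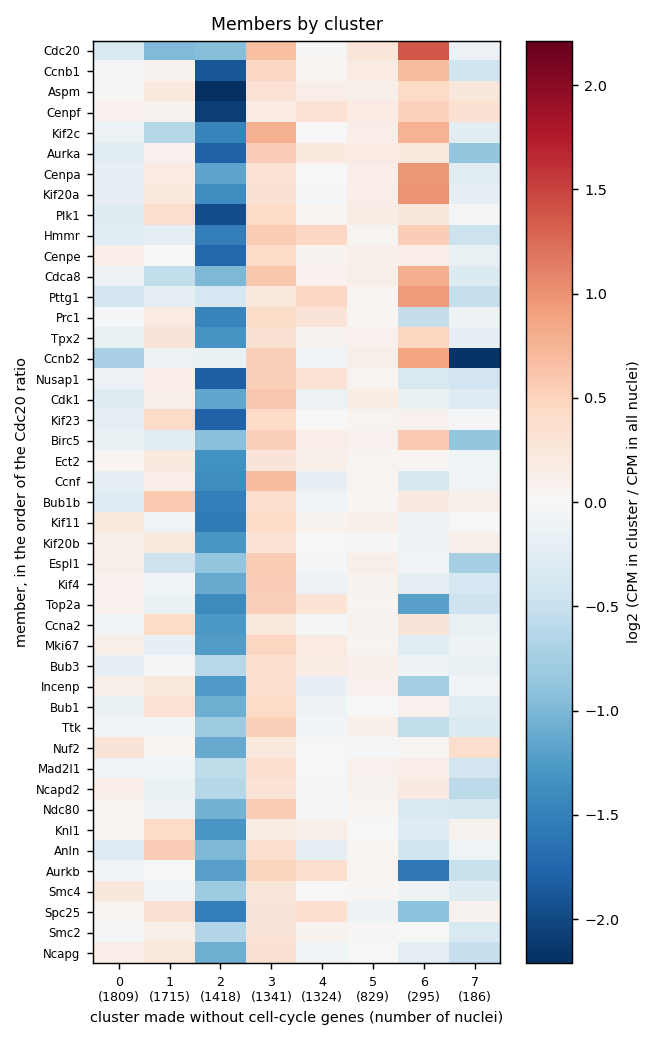
Log2 of the CPM of each member in a cluster over its CPM in all 8917 nuclei, for 8 clusters made without cell-cycle genes, with the number of nuclei under each column and genes in the order of the Cdc20 ratio. Cluster 2 is below 0 for all 45 genes and cluster 3 above 0 for all 45, while cluster 6 holds both Cdc20 (2.60 times) and Aurkb (0.332 times).

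Other genes of the pathway were described by lists. Of 51 further G2/M genes, 18 were at least 2-fold higher at 2 or more *Cdc20* UMIs and 0 at least 2-fold lower, with a median ratio of 1.67, beside 0.592% and 2.92% of all genes and their median of 0.951. *Ube2c*, the ubiquitin-conjugating enzyme of the APC/C, stood at 150 and 550 CPM, a ratio of 3.67 (3.58 to 3.76), and *Psrc1* and the kinase gene *Nek2* at 3.29 and 3.19. As among the members, condensin genes were low: *Ncapg2* and *Ncapd3* of condensin II stood at 0.747 and 0.839 and *Ncaph* of condensin I at 1.19. Of the 35 S-phase genes, 0 were higher and 4 were at least 2-fold lower (*Ccne1*, *Ccne2*, *Ung* and *Cdc6*, at 0.390 to 0.461), with a median of 0.736, beside the same 0.592% and 2.92% of all genes.

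Genes of the machinery around *Cdc20* were mostly near 1. Of 16 APC/C genes, 1 was at least 2-fold higher, beside 0.592% of all genes: *Fzr1*, which encodes the coactivator Cdh1, went from 17.4 to 36.4 CPM (2.09, 1.94 to 2.27). The median of the list was 0.996, and its core subunit gene *Anapc1* stood at 1.01. Of 10 cohesin genes none reached 2-fold and the median was 0.994, with *Rad21*, whose product separase cuts, highest at 1.64 (1.61 to 1.68). Of 12 genes of the DREAM and MuvB complexes and their partners, which bind CHR promoters, none reached 2-fold and the median was 0.993. For these and the cohesin genes, a count of 0 lies near the 0.592% of all genes and sets neither list apart. *Foxm1* stood at 1.62 (1.53 to 1.71) and *Mybl2* at 0.701 (0.647 to 0.759). The 7 genes of D cyclins and CDK inhibitors had a median of 1.05, with *Ccnd1* at 1242 and 1257 CPM, *Cdkn2c* at 1.88 and *Cdkn1a* at 0.702. The 7 stress genes had a median of 0.861.

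Markers of cell identity were set beside these values. The 8 OPC markers had a median ratio of 1.17, from 0.947 for *Olig1* to 1.52 (1.48 to 1.56) for *Pdgfra*, and 0 of 8 reached 2-fold, beside 0.592% of all genes. The median ratios of the listed genes with at least 100 UMIs were 1.25 for astrocyte (3 genes), 0.632 for neuron (5), 0.817 for microglia (2) and 0.510 for endothelial genes (3), at summed levels of 96.5 and 117, 150 and 151, 8.43 and 6.204, and 8.70 and 10.1 CPM at 0 and at 2 or more *Cdc20* UMIs. No pericyte or fibroblast gene reached 100 UMIs, and that list summed to 0.596 and 0.560 CPM. The part of these markers in the *Cdc20* split was not tested.

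Outside the members, the highest ratios among genes with at least 500 UMIs included 4 of the G2/M list among the first 10. The helicase gene *Pif1* went from 5.22 to 25.7 CPM (4.91, 4.30 to 5.63), *Arhgef39* from 3.17 to 13.5 CPM (4.27, 3.595 to 5.10) and *Cep89*, a centrosome gene, from 11.5 to 42.3 CPM (3.68, 3.36 to 4.04). *Ube2c*, *Gas2l3* (3.38), *Psrc1*, *Nek2*, *Tnfaip8l1* (3.17), *Troap* (2.99) and the predicted gene *Gm10184* (2.90) followed. At the other end, *Grin2a*, an NMDA receptor subunit gene, went from 46.6 to 11.6 CPM (0.250, 0.230 to 0.272), followed by *Tsix* (0.282), the chemokine gene *Ccl2* (0.286), *Apln* (0.294) and *Zfp385b* (0.296). *Tsix* overlaps *Xist* on the opposite strand, so its value is uncertain where reads of both cannot be told apart.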

How the data were processed

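The authors sequenced 1 library (10x 3' kit, v3.1), and the submitters' processing notes name Cell Ranger 8.0.1 and mm39. Per the labels and the file, the deposited values are raw UMI counts per gene and barcode, before the cutoffs on detected genes. The methods name the default pipeline, which in this version counts intronic reads with exonic ones, so levels may depend on intron content. The 6 other samples were not analysed here.

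The study's cutoffs of 2000 and 8000 detected genes left 8917 nuclei, more than the study's table of kept nuclei lists. Its number, 1954, is what a limit of 5% mitochondrial UMIs leaves in addition here, a limit that the methods do not state. Levels are UMIs summed over nuclei, in CPM. Thinning drew 5000 UMIs per nucleus at random. Clustering used Seurat 5.3.0 in R 4.3.3 (scale factor 1000, 3000 variable genes, regression on total counts, 20 components, 200 neighbors, resolution 1.0). Python 3.11.15, numpy 2.4.6 and scipy 1.17.1 gave the other values, and pysam 0.24.0 read the promoters. Positions are from GENCODE vM39 on GRCm39. Ratios, intervals and the depth weighting were tested on simulated Poisson counts. That check does not cover spread beyond counting error. At 5000 UMIs the variance over the mean of the 45 genes ran from 1.092 for *Mad2l1* to 3.105 for *Top2a*. Scrublet in scanpy 1.11.5 called 0 doublets, a failed call, so doublets were not removed.

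The members and gene lists were chosen with earlier results of these data known. Values are given for all 45 genes by role. Those singled out, some of them without an interval, are *Cdc20*, *Top2a*, *Mki67*, *Cdk1*, the 10 highest and 5 lowest levels and the 8 highest and 8 lowest *Cdc20* ratios, and outside the members the 10 highest and 5 lowest ratios among genes with at least 500 UMIs. The lists cover S phase, other G2/M genes, APC/C, cohesin, DREAM and MuvB, D cyclins and CDK inhibitors, stress and 7 cell types. Some items, among them the summed values of 1 of these marker lists and 1 promoter window, are not reported here. Alternatives changed the cutoffs on genes, mitochondrial share, doublets, depth, the *Cdc20* class, the splitting gene, the fold, the clusters and the UMI minimum.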

Additional observations from a re-analysis of the deposited data

How the results depend on the processing

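No paired analysis was possible because only 1 library has values here, and the brain samples that share its replicate number were not analysed. The pooled ratio of the 44 genes (2.02 as reported) stayed above 1 under every alternative run: 1.98 with all deposited barcodes, 2.06 with 3000 to 7000 genes, 2.32 with at most 5% mitochondrial UMIs, 2.11 without the 8% of nuclei that Scrublet scored highest, 1.78 and 1.74 after thinning to 5000 and 3000 UMIs, 2.13 for 3 or more and 1.84 for 1 or more *Cdc20* UMIs, 2.35 for the split by *Plk1*, 1.94 weighted by depth and 1.61 weighted by the clusters made with all variable genes. The count of genes at least 2-fold higher, 21, became 13 after thinning to 3000 UMIs and 6 weighted by cluster, and was 39 at 1.5-fold and 4 at 3-fold. It lay between 14 and 29 under the other alternatives. After thinning to 3000 UMIs, 43 of 44 genes were above 1 and *Aurkb* stood at 0.997. The share of nuclei with 2 or more *Cdc20* UMIs (34.6%) became 32.9% with all barcodes, 33.1% with 3000 to 7000 genes, 37.3% with at most 5% mitochondrial UMIs, 32.7% without the high Scrublet scores, and 11.1% and 5.13% at 5000 and 3000 UMIs. The share of all genes at least 2-fold higher (0.592%) was 1.24% with a minimum of 20 UMIs. The cause of these differences was not tested beyond their construction. The *Cdc20* classes are set by counts, so a nucleus at 0 may hold *Cdc20* RNA that was not sampled.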

Other observations

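Barcodes outside the cutoffs on detected genes were not used above. The 918 barcodes with under 2000 genes (median 1717 UMIs) had 4900 CPM (4797 to 5005) of the 44 genes and 62.0 CPM (50.9 to 74.8) of *Cdc20*, with 2 or more *Cdc20* UMIs in 12 of them, 1.31%. The 212 barcodes with over 8000 genes (median 53105 UMIs) had 7473 CPM (7423 to 7523) of the 44 genes and 146 CPM (139 to 153) of *Cdc20*, with 2 or more *Cdc20* UMIs in 94.3% (90.3 to 97.0).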
